A study of Homo sapiens with 6 samples.

Results

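The PTBP genes and their partners are 5 of the 54261 genes counted in A549, an established cell line of human lung adenocarcinoma, after knockdown of the long noncoding RNA SNHG17. They are PTBP1, PTBP2, PTBP3, RAVER1 and MATR3, each found by its symbol, and all 5 passed the filter on low counts that left 15614 genes for testing. The treated cells received an siRNA against SNHG17 (si-SNHG17, 3 libraries) and the control cells a control siRNA (si-NC, 3 libraries), and both were grown with 10% fetal bovine serum. It is a single line, and the labels give neither the siRNA sequences nor the time between transfection and harvest. The genes were chosen by the si-SNHG17 against si-NC values themselves, above all the rise of PTBP2. Their fold changes, and the side of the threshold each fell on, are therefore given as a description and support nothing.

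PTBP proteins bind pyrimidine-rich RNA and mostly repress the exons beside it. PTBP1 is made in most dividing cells, whereas PTBP2 (nPTB) is best known from developing neurons and PTBP3 (ROD1) from blood cells. The pair is linked: PTBP1 promotes skipping of a short exon of PTBP2, which shifts the reading frame and exposes the transcript to nonsense-mediated decay (NMD), so that loss of PTBP1 is classically followed by a gain of PTBP2. PTBP1 limits its own transcript by the same kind of exon skipping. RAVER1 and MATR3 carry short peptide motifs that dock on PTBP1, and they act with it on some of its target exons.

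The linking exon is 34 bases long, and it is shown with 30 bases on each side because it is the exon of the known link described above. Capitals mark the exon and lower case the neighbouring exons of the spliced transcript, 5′ to 3′, from GENCODE release 29 (GRCh38). In PTBP2 it is exon 10 of 14, at chr1:96806419-96806452 on the plus strand. The corresponding exon of PTBP1 is exon 10 of 14, at chr19:807869-807902 on the plus strand. That of PTBP3 is exon 11 of 15, at chr9:112231380-112231413 on the minus strand.
PTBP2: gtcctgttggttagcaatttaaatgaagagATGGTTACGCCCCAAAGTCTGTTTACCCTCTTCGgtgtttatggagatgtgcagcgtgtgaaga
PTBP1: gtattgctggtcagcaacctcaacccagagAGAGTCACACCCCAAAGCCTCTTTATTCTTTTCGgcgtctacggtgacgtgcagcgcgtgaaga
PTBP3: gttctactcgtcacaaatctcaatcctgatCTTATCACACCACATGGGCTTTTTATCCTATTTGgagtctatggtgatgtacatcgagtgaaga

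The exon is of equal length in all 3 genes, and its 34 bases leave a remainder of 1 after whole codons. With the exon, the transcript shown for PTBP2 codes for 531 codons. Joining its neighbours directly brings a stop after 356 codons, 361 bases before the last exon junction. For PTBP1 the figures are 531 codons with the exon and 355 without it, and for PTBP3 they are 552 and 376, with the stop again 361 bases before the last junction. PTBP2 and PTBP1 share 25 of the 34 exon bases, PTBP3 and PTBP1 share 22, and PTBP2 and PTBP3 share 21. Over the whole coding sequence PTBP2 and PTBP1 are 65.4% identical. No stretch of 50 bases is shared between the annotated transcripts of any pair of the 3 genes, so reads of that length or longer that match exactly can be told apart. The files hold 1 count per gene, so use of this exon was not measured, and the values below are of each gene's total reads.

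**Figure D1:**
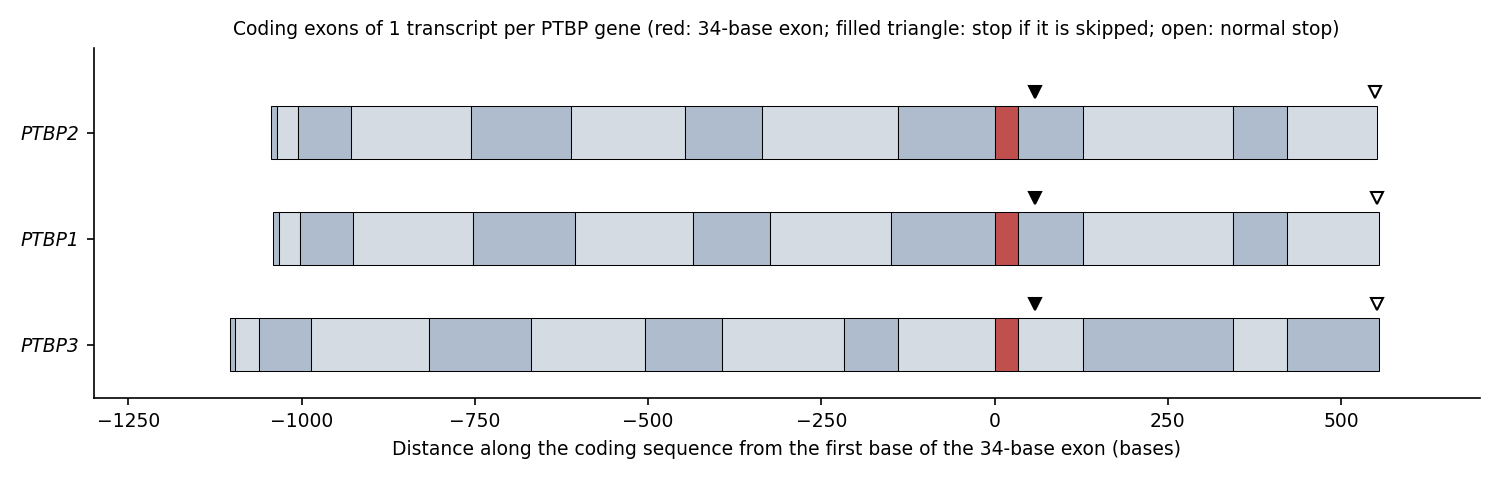
Coding exons (alternating shades) of 1 annotated transcript each of PTBP2, PTBP1 and PTBP3, drawn to scale along the spliced coding sequence in bases from the start of the 34-base exon (red). Filled triangles mark the stop reached when that exon is skipped and open triangles the normal stop. In all 3 genes the early stop falls in the exon after the skipped one, 361 bases before the last junction.

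The 6 libraries held 8643076 to 12477214 counts. In them 3 counts, about the upper 95% Poisson limit for a count of 0, came to 0.240 to 0.342 CPM. CPM are counts divided by the library's total over the tested genes, corrected by trimmed-mean normalization, and multiplied to a shared total. SNHG17 had 7.82, 8.39 and 11.3 CPM in si-SNHG17, against 38.7, 36.2 and 51.4 CPM in si-NC. An exact two-sided permutation test gave p = 0.1, the smallest that 3 against 3 allows. By chi-square per degree of freedom, si-NC replicate 3 stood apart from the other si-NC libraries (8.40 and 8.85, against 2.25 between replicates 1 and 2). Nothing in the labels says that the libraries came from separate cultures, so their spread may be technical. The 13 mitochondrially encoded protein genes took 3.11% to 3.37% of counts in si-SNHG17 and 5.70% to 6.48% in si-NC, and their part in the results below was not tested. Of 10 epithelial markers 9 were tested, and the 10 summed to 10883 to 11356 CPM in si-SNHG17 and 12973 to 15148 CPM in si-NC, mostly keratins; EPCAM averaged 0.95 CPM in si-SNHG17 and 1.53 CPM in si-NC. Of these markers 3 rose and 4 fell (77.8% called, beside 39.1% of all genes tested), with a median log2 fold change of -0.53. KRT18 (-0.93), CLDN4 (-0.93), KRT8 (-0.75) and CDH1 (-0.53) fell, while KRT19 (0.43), ELF3 (0.40) and KRT7 (0.27) rose. KRT7, named like ELF3 and CDH1 after its value was seen, averaged 4944 CPM in si-SNHG17 and 4086 CPM in si-NC. The KRT7 call was lost when any one library other than si-NC replicate 3 was left out. Of 14 immune, stromal and endothelial markers 3 were tested, where ITGAM rose by 0.50, CD14 fell by 0.88 and COL1A1 was at 0.06. The ITGAM call was lost under DESeq2 and when either si-NC replicate 1, si-NC replicate 2 or si-SNHG17 replicate 2 was left out. The 14 summed to 51.5 to 61.9 CPM in si-SNHG17 and 61.7 to 79.4 CPM in si-NC, and PTPRC, CD3E, COL1A2 and COL3A1 were among those with no count.

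PTBP2 (chr1:96721784-96823739, GRCh38.p14) was several-fold higher after SNHG17 knockdown. Its counts were 312, 409 and 346 in the si-SNHG17 libraries and 49, 62 and 48 in the si-NC libraries. On the CPM scale these were 32.5, 32.7 and 39.4 in si-SNHG17 and 5.58, 6.11 and 4.50 in si-NC. Every si-SNHG17 library lay above every si-NC library, with a wide gap between the groups. The means were 34.9 ± 3.94 CPM in si-SNHG17 and 5.40 ± 0.825 CPM in si-NC (SD, n = 3 each), a log2 fold change of 2.69 (standard error 0.152), or 6.46-fold. PTBP2 had the fold change ranked 28 from the top of the 15614 genes.

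PTBP1 (chr19:797452-812312), which represses the productive form of PTBP2, was lower in the same libraries. It had 59.4, 60.9 and 53.9 CPM in si-SNHG17, against 125.2, 120.0 and 101.1 CPM in si-NC. The groups did not overlap, and the lowest si-NC library was replicate 3. The means were 58.1 ± 3.68 CPM in si-SNHG17 and 115.5 ± 12.7 CPM in si-NC, so that 50.4% of the control level was left. Its log2 fold change came to -0.99 (standard error 0.098), and 5.21% of the tested genes had a lower one. The rise of PTBP2 thus came with a fall of PTBP1, in every library of the si-SNHG17 group against every si-NC library. The fall was also the smaller change, about 1 unit on the log2 scale beside 2.69. Gene counts do not show whether the one followed from the other. In bulk RNA, fewer cells of a type and less RNA per cell cannot be told apart.

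PTBP3 (chr9:112217715-112379882), the third paralogue, binds similar pyrimidine-rich RNA. It had 123.7, 109.6 and 133.4 CPM in si-SNHG17, against 239.1, 206.9 and 182.2 CPM in si-NC. All 3 si-SNHG17 libraries lay below all si-NC libraries, although the si-NC libraries themselves spread widely. The mean was 122.2 ± 11.98 CPM in si-SNHG17 and 209.4 ± 28.5 CPM in si-NC, a log2 fold change of -0.78 (standard error 0.105) that left 58.4% of the control level. PTBP3 thus went the way of PTBP1 and not of PTBP2.

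The cofactors did not separate the groups. RAVER1 (chr19:10316212-10333529), the PTBP1 corepressor, had 38.4, 43.1 and 36.2 CPM in si-SNHG17, against 34.8, 36.2 and 43.5 CPM in si-NC. The groups overlapped almost fully, and the log2 fold change of 0.04 had a 95% interval of -0.20 to 0.29. MATR3 (chr5:139274101-139331677), a nuclear matrix protein that binds RNA and PTBP1, had 6.57, 9.03 and 12.6 CPM in si-SNHG17, against 9.56, 11.9 and 8.05 CPM in si-NC. These groups overlapped too, and the log2 fold change of -0.07 had a 95% interval of -0.55 to 0.41. The MATR3 row held few counts, 63 to 121 per library. GENCODE release 29 annotates 2 overlapping genes named MATR3, at chr5:139293648-139331677 and chr5:139273752-139331671, which share 5141 exon bases, or 42.5% and 80.9% of each. How reads shared by overlapping genes were counted is not given in the sources used here, so the MATR3 level may be understated, which was not tested. SNHG4, a noncoding RNA in the same region, had no read in si-SNHG17 and 1 read in si-NC.

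**Figure D2:**
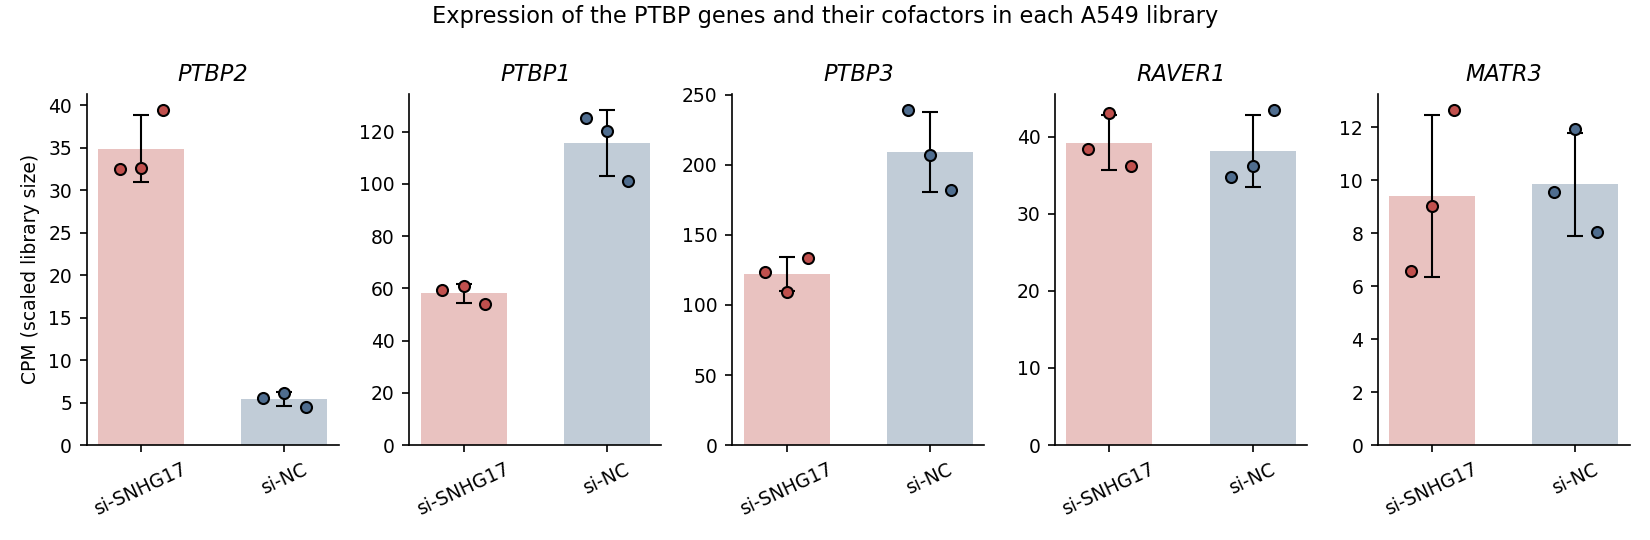
CPM of PTBP2, PTBP1, PTBP3, RAVER1 and MATR3, each on its own axis from 0. Bars are group means, whiskers are SD and points are the 3 libraries of si-SNHG17 (red) and si-NC (blue). The PTBP2 points are higher and the PTBP1 and PTBP3 points lower in si-SNHG17 with no overlap, while RAVER1 and MATR3 overlap.

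Of the 5 genes, 1 was called higher (PTBP2) and 2 lower (PTBP1 and PTBP3) at the threshold used for all genes, an adjusted p of 0.05 by edgeR's quasi-likelihood test. Across all 15614 genes 6112 were called (39.1%), 19.6% higher and 19.6% lower, so a call by itself was common in this comparison. The groups did not overlap for 3 of the 5 genes and for 49.4% of all genes. Since the contrast chose the 5 genes, nothing is read from these shares.

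The make-up of the PTBP family differed between the groups. PTBP2 took 15.1%, 16.1% and 17.4% of the summed PTBP1, PTBP2 and PTBP3 counts in the si-SNHG17 libraries, with exact 95% binomial intervals of 13.6% to 16.7%, 14.7% to 17.6% and 15.7% to 19.1%. In the si-NC libraries it took 1.51%, 1.84% and 1.56%, with intervals of 1.12% to 1.99%, 1.41% to 2.35% and 1.15% to 2.07%. The intervals cover counting error only, and since PTBP2 was chosen for its rise the shares are a description. PTBP1 took 27.6%, 29.96% and 23.8% in si-SNHG17 and 33.9%, 36.0% and 35.1% in si-NC. PTBP3 remained the largest share in every library, at 54.0% to 58.8% in si-SNHG17 and 62.1% to 64.6% in si-NC. The ratio of PTBP1 to PTBP2 counts was 1.83, 1.86 and 1.37 in si-SNHG17, against 22.4, 19.6 and 22.5 in si-NC. These are ratios of reads, not of levels, since the annotated exons of PTBP2 are longer than those of PTBP1.

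The gain of PTBP2 did not make up for the loss of the other paralogues in read number. The 3 genes summed to 215.6, 203.2 and 226.8 CPM in si-SNHG17, against 369.9, 333.1 and 287.8 CPM in si-NC, and the groups did not overlap. That is 65.2% of the si-NC mean. PTBP1 and PTBP2 alone summed to 93.0 ± 0.858 CPM in si-SNHG17 and 120.9 ± 13.4 CPM in si-NC (SD, n = 3 each), or 76.9%. These 2 sums are descriptions of the chosen genes.

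**Figure D3:**
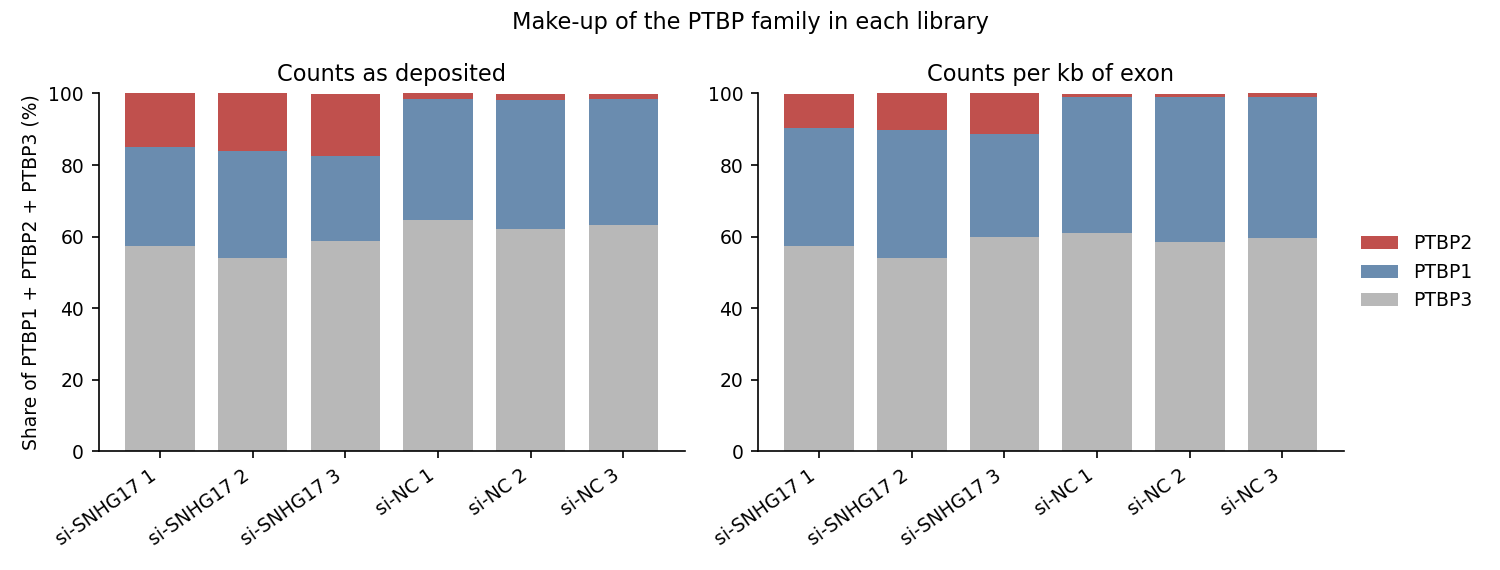
Share of PTBP2 (red), PTBP1 (blue) and PTBP3 (grey) in their summed reads in each library, in percent, from counts as deposited (left) and from counts divided by the length of all annotated exons (right). PTBP2 takes over 15% of the counts in each si-SNHG17 library, against under 2% in each si-NC library, and PTBP3 is the largest share throughout.

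Genes can be compared in level only per length, here CPM per kilobase of all annotated exons in GENCODE release 29. On this scale PTBP3 was highest, at 14.8 ± 1.45 in si-SNHG17 and 25.4 ± 3.46 in si-NC. PTBP1 followed at 8.44 ± 0.535 in si-SNHG17 and 16.8 ± 1.84 in si-NC. RAVER1 stood at 7.88 ± 0.710 in si-SNHG17 and 7.66 ± 0.930 in si-NC. In si-SNHG17, PTBP1 (7.83 to 8.84 per library) and RAVER1 (7.28 to 8.66) overlapped and so have no order, whereas in si-NC PTBP1 was above RAVER1 in every library. PTBP2 was at 2.70 ± 0.305 in si-SNHG17 and 0.417 ± 0.0638 in si-NC. MATR3 was at 0.708 ± 0.230 in si-SNHG17 and 0.740 ± 0.147 in si-NC. PTBP2 was therefore the lowest of the 5 in si-NC and above MATR3 in every si-SNHG17 library. As the MATR3 level may be understated, the place of MATR3 in this order is uncertain. By this measure PTBP2 held 10.4% of the family in si-SNHG17 and 0.980% in si-NC, with PTBP1 still 3.17 times its level in si-SNHG17, against 40.5 times in si-NC. Per coding base, with 1593 in both genes, PTBP1 averaged 1.69 times PTBP2 in si-SNHG17 and 21.5 times in si-NC. The exon lengths used, 12937 bases for PTBP2, 6883 for PTBP1 and 8239 for PTBP3, include exons these cells may not use.

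The only other rows whose names begin with PTBP, RAVER or MATR were PTBP1P, a pseudogene of PTBP1, and RAVER2, a paralogue of RAVER1. PTBP1P had 2.71, 3.28 and 3.53 CPM in si-SNHG17, against 6.83, 7.40 and 6.27 CPM in si-NC (log2 fold change -1.10, edgeR adjusted p = 0.000831). Its counts were 4.56% to 6.55% of those of PTBP1 in si-SNHG17 and 5.45% to 6.20% in si-NC, which overlap. Although the annotated transcripts share no exact stretch of 50 bases, reads that the counting may have split between PTBP1 and PTBP1P make this row uncertain. RAVER2 averaged 17.0 CPM in si-SNHG17 and 20.7 CPM in si-NC (log2 fold change -0.29, edgeR adjusted p = 0.0914), and without si-NC replicate 3 its adjusted p was 0.0284.

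Transcripts with exons known to be controlled by PTBP proteins changed in gene level in both directions. Of 18 such genes 15 were tested, of which 6 rose and 3 fell (60% called, beside 39.1% of all genes tested). Their median log2 fold change was 0.26, beside 0.01 over all genes tested. DLG4, which encodes the postsynaptic scaffold PSD-95 and is held down by both PTBP1 and PTBP2 through skipping of an exon that leads to NMD, had 91.1, 88.8 and 84.8 CPM in si-SNHG17, against 47.5, 43.2 and 49.6 CPM in si-NC (log2 fold change 0.92). Its groups did not overlap. The receptor FGFR1 fell, with 219.5, 210.4 and 197.7 CPM in si-SNHG17, against 379.8, 376.0 and 348.0 CPM in si-NC (-0.81). Its relative FGFR2 rose by 1.29 at a low level, 5.45 CPM on average in si-SNHG17 and 2.22 CPM in si-NC. The deubiquitinase USP5 fell by 0.58. The other calls, named after their values were seen, were rises of the kinase SRC (0.30), the GABA-B receptor subunit GABBR1 (0.43), the filamin FLNA (0.26) and the actinin ACTN1 (0.27), and a fall of the pyruvate kinase PKM (-0.23). The FLNA, ACTN1 and PKM calls were each lost when a si-SNHG17 library was left out, replicate 1 in all 3 cases. Exon choice in any of these transcripts was not measured.

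Among the hnRNP proteins, the larger group of nuclear RNA-binding proteins to which PTBP1 (hnRNP I) belongs, falls outnumbered rises. Of 26 genes other than the PTBP members 25 were tested, with 12 lower, 1 higher and a median log2 fold change of -0.23. Together 52% were called, beside 39.1% of all genes tested (19.6% lower and 19.6% higher). The poly(C)-binding PCBP4 averaged 13.3 CPM in si-SNHG17 and 35.4 CPM in si-NC (-1.40). PCBP1 fell by 0.55, HNRNPAB by 0.54, and HNRNPL, which like PTBP1 can repress or activate exons, by 0.50. HNRNPF, which binds G-rich tracts, was the exception, at 594.0 CPM in si-SNHG17 and 433.9 CPM in si-NC (0.45).

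Genes of polypyrimidine tract and 3′ splice site recognition, with related factors, moved in both directions. Of 20 genes 19 were tested, 5 higher and 3 lower (42.1% called, beside 39.1% of all genes tested), with a median of 0.03. All 3 subunits of SF3A, a part of the U2 particle, rose. SF3A1 had 175.7, 165.2 and 166.4 CPM in si-SNHG17, against 102.8, 105.1 and 88.6 CPM in si-NC (0.78), SF3A2 rose by 0.71 and SF3A3 by 0.52. CELF1, which binds GU-rich RNA, fell by 0.43. The other calls, named after their values were seen, were rises of SUGP1 (0.52) and SF3B1 (0.39) and falls of SF3B4 (-0.46) and U2AF2 (-0.25). The U2AF2 groups overlapped, and its edgeR adjusted p was 0.0409.

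Of 25 other tissue-restricted splicing regulators 11 were tested, 2 higher and 2 lower, with a median of -0.01, beside 19.6% of all tested genes higher and 19.6% lower. NOVA2, a neuronal regulator, had 40.4, 42.6 and 41.4 CPM in si-SNHG17, against 16.2, 16.6 and 14.3 CPM in si-NC (1.40). Its paralogue NOVA1 fell by 0.45, RBFOX3 (NeuN) fell by 0.31 and QKI rose by 0.28. The NOVA1, RBFOX3 and QKI calls were weak: NOVA1 lost its call without si-SNHG17 replicate 1 or 2 or si-NC replicate 2, RBFOX3 without si-SNHG17 replicate 2 or 3 or si-NC replicate 2, and QKI under 9 of the 14 alternatives. Without si-SNHG17 replicate 2 or si-NC replicate 2, no gene of this list was called lower.

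Neuronal markers, checked because PTBP2 is chiefly a neural gene, showed no common direction. Of 24 markers 14 were tested, 4 higher and 4 lower (57.1% called, beside 39.1% of all genes tested), with a median of 0.01. They summed to 666.1 to 740.7 CPM in si-SNHG17 and 624.8 to 692.6 CPM in si-NC, which overlap, and STMN2, ELAVL4 and NCAM1 had no count in any library. The neurofilament NEFL rose by 1.52 at a low level (5.52 CPM on average in si-SNHG17 and 1.91 CPM in si-NC), the vesicle protein VAMP2 rose by 0.42, the enolase ENO2 rose by 0.35, and STMN3, a microtubule regulator, fell by 0.81. The number that fell was 2 without any one si-SNHG17 library and 1 without si-NC replicate 2.

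REST, a repressor of neuronal genes and of miR-124, and miR-124 itself, which targets PTBP1, act upstream of the neuronal PTBP1 to PTBP2 switch. Of 14 genes of this circuit 12 were tested, 4 higher and 3 lower (58.3% called, beside 39.1% of all genes tested), with a median of 0.18. The host transcripts of miR-124 that were counted had no count. REST itself had 39.9, 33.0 and 33.3 CPM in si-SNHG17, against 29.5, 28.5 and 21.0 CPM in si-NC (0.43), a call that was lost without si-SNHG17 replicate 1 or si-NC replicate 3. The histone deacetylase HDAC1, a REST corepressor, had 74.8, 68.5 and 77.9 CPM in si-SNHG17, against 155.3, 161.4 and 143.7 CPM in si-NC (-1.06). The small phosphatases CTDSP1 and CTDSPL, which act with REST and are miR-124 targets, fell by 1.08 and 0.88. Their relative CTDSP2, named after its value was seen, was higher (0.25), at 230.7 CPM on average in si-SNHG17 and 193.6 CPM in si-NC, a call lost without si-SNHG17 replicate 1, si-SNHG17 replicate 3 or si-NC replicate 1. The methyltransferase EHMT2 rose by 0.49. Rises numbered 2 without si-SNHG17 replicate 1, si-SNHG17 replicate 3 or si-NC replicate 3.

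NMD was described because it removes the short form of PTBP2. Of 19 NMD and exon junction factors 18 were tested, 3 higher and 0 lower, with a median of 0.22. That is 16.7% called, beside 39.1% of all genes tested, of which 19.6% were higher and 19.6% lower, so calls were no more common here. PNRC2, a decapping adaptor, had 44.5, 52.5 and 52.5 CPM in si-SNHG17, against 21.4, 19.5 and 22.9 CPM in si-NC (1.23). DHX34 rose by 0.43 and NBAS by 0.33, whereas SMG9 (0.29, edgeR adjusted p = 0.0597) did not pass, and the central helicase UPF1, named after its value was seen, was at 0.00. The number that rose was 7 when libraries were scaled by their totals only and 6 without si-NC replicate 3. Of 18 transcripts known to be sensitive to NMD, all tested, 10 rose and 4 fell (77.8% called, beside 39.1% of all genes tested), with a median of 0.41. GAS5, a snoRNA host, had 259.6, 257.7 and 287.6 CPM in si-SNHG17, against 140.5, 130.2 and 152.6 CPM in si-NC (0.93). The stress factor ATF3 rose by 1.51, the phosphorylase UPP1 by 0.84 and the snoRNA host ZFAS1 by 0.76. The 4 that fell, named after their values were seen, were splicing factor genes with their own NMD-linked exons, SRSF2 (-0.67), SRSF3 (-0.58), SRSF7 (-0.32) and HNRNPDL (-0.24). Not all splicing-related genes of the list fell. TRA2A was at 0.05, while CCNL1 rose by 0.49 and CLK1 by 0.77, also named after their values were seen.

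**Figure D4:**
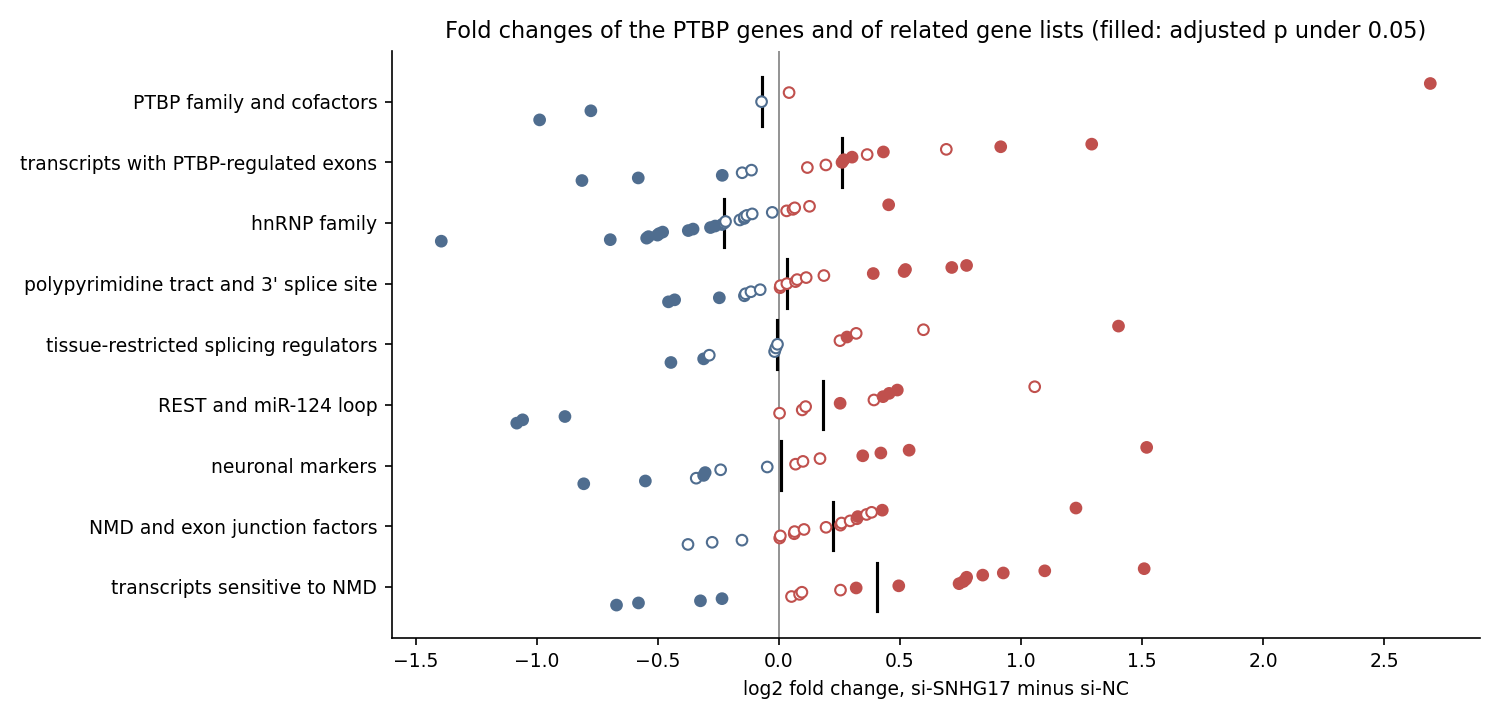
Log2 fold change (si-SNHG17 minus si-NC) of each tested gene in the PTBP group and in 8 related lists; filled points had an adjusted p under 0.05, red points lie above 0 and blue below, and black bars are list medians. PTBP2, at 2.69, lies farthest right, hnRNP genes lie mostly left of 0 and NMD-sensitive transcripts mostly right.

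None of the tested neighbours of PTBP2 on chromosome 1 was called higher. Of the 3 protein-coding genes on each side, 4 were tested. The nearest, DPYD, which encodes the enzyme that degrades pyrimidines, had 3.23, 2.24 and 3.19 CPM in si-SNHG17, against 5.92, 5.92 and 8.43 CPM in si-NC (log2 fold change -1.25, edgeR adjusted p = 0.00101). SNX7 was at 0.24, RWDD3 at -0.31 and the readthrough TMEM56-RWDD3 at -0.34, none past the threshold. These lie far off, 1474559 to 1837580 bases from PTBP2, against 254004 bases for DPYD. TMEM56 had too few counts to test, and LOC124904228 had no row of that name. Beside PTBP1, MISP rose by 0.52. Beside PTBP3, UGCG rose by 0.60, HSDL2 rose by 0.52 and SUSD1 fell by 0.33, a call lost under 9 of the 14 alternatives. Beside MATR3, SIL1 rose by 0.55, PAIP2 rose by 0.39 and the vitamin C transporter SLC23A1 fell by 2.07, and no neighbour of RAVER1 was called. As 39.1% of all genes tested were called, nothing is read from the calls of neighbours.

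By Pearson correlation of log2 CPM over the 6 libraries, the 5 genes most like PTBP2, among 11346 genes with a mean of at least 5 CPM, were LOC389906 (0.999), the transcription factor BACH1 (0.998), ZCCHC2 (0.998), the transporter SLC16A6 (0.998) and the glucosamine phosphate deaminase GNPDA1 (0.998). SLC16A6 came nearest in size, with 54.6 ± 3.36 CPM in si-SNHG17 and 11.3 ± 1.99 CPM in si-NC (SD, n = 3 each, log2 fold change 2.27). BACH1 averaged 125.3 CPM in si-SNHG17 and 46.8 CPM in si-NC (1.42). The 6 points fall into the 2 treatment groups, and 851 genes (7.50%) correlated above 0.95, so the order mostly ranks how cleanly a gene separates them.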

How the data were processed

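RNA was sequenced from 3 si-SNHG17 and 3 si-NC libraries of A549 cells; per the labels' protocols, Trizol was used for total RNA, and Ion Total RNA-Seq libraries were read single-end on an Ion Proton. The authors deposited raw whole-number counts per gene, and the submitters' processing notes name GRCh38. Not given in the sources used here are the aligner, the counter, the annotation and the use of strand, so overlapping and antisense genes are uncertain. The members and lists were chosen with earlier results of these data known.

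The test was edgeR's (4.0.16, in R 4.3.3) quasi-likelihood fit: filterByExpr, TMM scaling, a model of group alone in glmQLFit and glmQLFTest, and Benjamini-Hochberg adjustment over 15614 genes (threshold 0.05). Fold changes are log2, si-SNHG17 minus si-NC. For the correlations with PTBP2, log2 CPM used a pseudocount of 0.5. The permutation test of SNHG17 used none, and the deviations below a different one. Exons came from GENCODE release 29, gene positions and neighbours from RefSeq (GRCh38.p14). Named genes were the 5 members, SNHG17, SNHG4, rows with related names, up to 4 genes per list by smallest p and any further one against its list, 3 neighbours on each side and the 5 genes most like PTBP2. Some further genes were named after their values were seen, as marked. The fit was checked on simulated data. Libraries of equal number were not taken as paired, since the correlations of their deviations were 0.081, -0.147 and -0.123.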

Additional observations from a re-analysis of the deposited data

How the results depend on the processing

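Over 14 alternatives (RLE, upper quartile or totals-only scaling, no filter, mean CPM of at least 1, DESeq2 1.42.0, limma-voom 3.58.1, a replicate block and leaving out each library), PTBP2 ranged from 2.57 to 2.79, PTBP1 from -1.08 to -0.93 and PTBP3 from -0.87 to -0.67 on the log2 scale, each called in all 14. RAVER1 and MATR3 were called in 0. With the replicate block PTBP2 was at 2.69 and PTBP1 at -0.99, and 5579 genes were called, 5515 of them among the 6112; DESeq2 called 5422. Leaving out each library gave 4911 to 6601 calls. Totals-only scaling called 6138 genes, 55.5% of them higher, and moved the median of all genes to 0.05. RAVER1 ranged from -0.0318 to 0.146 when libraries were left out, below 0 without si-SNHG17 replicate 2 (-0.0318) or si-NC replicate 1 (-0.0204). MATR3 ranged from -0.318 to 0.128, above 0 without si-SNHG17 replicate 1 (0.128) or si-NC replicate 2 (0.0906). COL1A1 ranged from -0.0491 to 0.188, below 0 without si-SNHG17 replicate 2 (-0.0491) or si-NC replicate 2 (-0.0387). The cause of these 3 changes was not tested, and all 3 genes lay within their error of 0.

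Dividing by exon length moved the family shares to 32.6% in si-SNHG17 and 39.4% in si-NC for PTBP1, 10.4% in si-SNHG17 and 0.980% in si-NC for PTBP2, and to 59.6% in si-NC for PTBP3. Dividing by coding length, chosen after seeing the data, gave 16.5% in si-SNHG17 and 1.68% in si-NC for PTBP2. Of the list counts, rises of tissue-restricted regulators numbered 1 under upper quartile scaling, a mean CPM of at least 1, DESeq2 and the replicate block (1 to 2 with a library left out), and their falls 0 to 3 with a library left out. Rises of NMD factors numbered 7 with totals only and 6 with no filter (3 to 6 with a library left out), and their falls 0 to 1. Rises of immune, stromal and endothelial markers numbered 3 with no filter and 0 with DESeq2 (0 to 1 with a library left out), and their falls 2 with no filter. With a library left out, falls of neuronal markers numbered 1 to 4, rises of REST circuit genes 2 to 5 and falls of NMD-sensitive transcripts 2 to 4. Low counts limit MATR3 and FGFR2, with 63 to 121 and 17 to 72 counts per library.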
